A study of Mus musculus with 15 samples.

Results

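The genes for the proteins of the mitochondrial ribosome were taken from an expression table by symbol, as every row named Mrpl or Mrps followed by a number and at most 1 closing letter. This rule used no measured value and found 78 of the 14801 genes in the table, 49 Mrpl and 29 Mrps genes, and all 78 passed the filter on low values described under processing. Mrpl stands for the large subunit and Mrps for the small subunit, with exceptions in the names: the products of Mrps18a and Mrps30 are large-subunit proteins in mammals, and the product of Mrps36 is described as a part of the 2-oxoglutarate dehydrogenase complex, not of the ribosome.

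Mitochondria carry ribosomes of their own, which translate the few mRNAs encoded in mitochondrial DNA into core subunits of the respiratory chain and of ATP synthase. Their RNAs come from mitochondrial DNA, whereas every protein of both subunits is encoded in the nucleus, made in the cytosol and imported. Some of these proteins have counterparts in the bacterial ribosome and others are found only in mitochondria. Mature neutrophils are known to rely mainly on glycolysis and to hold few active mitochondria, while early myeloid progenitors divide and build up mitochondrial mass.

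RNA was sequenced from 5 cell populations that were sorted by flow cytometry from bone marrow of untreated, healthy mice, with 3 libraries per population. The populations are named ProNeut_Neutrophil and PreNeut_Neutrophil (ProNeut and PreNeut from here on), Neutrophil, CD115plusGMP and CMP. CMP and GMP are the usual short forms for the common myeloid and the granulocyte-monocyte progenitor, and CD115 is the receptor for the growth factor M-CSF; the labels spell out none of the names, nor the sort gates, the strain, the age or the sex of the mice. Whether the 3 libraries of a population are from different mice is not stated, so the p-values rest on the spread among these libraries, and that spread may be technical. Levels are log2 CPM, the log2 of reads scaled to library size, and a log2 difference of 1 is a doubling. A gene was called higher or lower when its limma p-value, adjusted by Benjamini-Hochberg over all genes tested, was under 0.05 and its log2 difference was at least 1 in size.

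The libraries fall into 2 sets that differ in depth and in which strand of a locus they appear to count, and groups of different sets were not tested against each other. ProNeut and PreNeut libraries held 7493694 to 68171606 reads on genes of the table, PreNeut replicate 3 being the deepest, and Neutrophil, CD115plusGMP and CMP libraries held 810794 to 1444403. Of the reads on the 13 mitochondrial protein genes, ND6, the single gene of these on the light strand, took 0.154% to 0.230% in ProNeut and PreNeut libraries and 69.1% to 93.3% in the other 9. The share of reads on 503 identifiers without a gene symbol was 0.102% to 0.146% in ProNeut and PreNeut libraries and 55.6% to 69.5% in the others. In Neutrophil, CD115plusGMP and CMP libraries a value is therefore given as that of the locus. It may hold reads from the strand opposite to the named gene, whether or not a gene is annotated there. The same applies to values given for genes on the strand opposite to a member. Which strand was counted was not tested.

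Sequence that the symbol rule did not use was shared by many of the genes. RefSeq promoter windows on GRCm38.p6, from 250 bases before to 50 after the start, were available for 69 of the 78 genes (75 windows). The core motif of the ETS family of transcription factors, CCGGAAG searched on both strands, was found in 26 of these 69 genes (37.7%), in 19.3% of the 10843 genes of the table with a window and in 9.93% of all 27025 genes with a window. The motif of the factor YY1, AAGATGGCG on either strand, was found in 8 (11.6%), against 3.38% of the genes of the table. The motif of NRF1, a regulator of nuclear genes for mitochondrial proteins, CGCATGCGC on either strand, was found in 7 (10.1%), against 3.89%. No 2 of these motifs contain each other, and 36 of the 69 genes (52.2%) held at least 1, against 24.7% of the genes of the table. Genes of a table of expressed genes have more of such motifs than all genes, and a match is a stretch of letters, not a measured binding site. The windows of 4 genes are printed to show how the matches lie, with motif letters in capitals; all are on the plus strand. Mrpl33 (chr5:31613701-31614000) has the highest level per length of all members in ProNeut and PreNeut, Mrpl52 (chr14:54426659-54426958) holds the ETS motif 2 times, Mrps18a (chr17:46110754-46111053) holds an ETS and a YY1 motif, and Mrps11 (chr7:78782881-78783180), whose exons overlap those of Mrpl46 on the opposite strand by 173 bases, holds a YY1 motif.
Mrpl33: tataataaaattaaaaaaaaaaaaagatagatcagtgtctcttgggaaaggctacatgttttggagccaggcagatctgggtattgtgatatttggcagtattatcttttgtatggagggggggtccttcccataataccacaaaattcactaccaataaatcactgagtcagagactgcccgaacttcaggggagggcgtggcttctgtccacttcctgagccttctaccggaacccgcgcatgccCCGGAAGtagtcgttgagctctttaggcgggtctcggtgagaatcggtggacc
Mrpl52: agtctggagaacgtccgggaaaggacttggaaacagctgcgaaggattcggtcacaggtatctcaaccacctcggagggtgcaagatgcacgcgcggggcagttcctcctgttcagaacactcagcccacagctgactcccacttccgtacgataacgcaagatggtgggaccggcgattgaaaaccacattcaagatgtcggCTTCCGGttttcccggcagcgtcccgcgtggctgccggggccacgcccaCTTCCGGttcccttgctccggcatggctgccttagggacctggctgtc
Mrps18a: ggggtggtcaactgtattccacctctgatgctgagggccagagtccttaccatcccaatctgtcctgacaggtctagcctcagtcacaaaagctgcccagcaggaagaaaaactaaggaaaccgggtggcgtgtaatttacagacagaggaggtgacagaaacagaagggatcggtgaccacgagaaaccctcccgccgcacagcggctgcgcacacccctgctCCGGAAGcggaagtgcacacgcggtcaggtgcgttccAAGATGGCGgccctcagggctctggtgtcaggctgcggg
Mrps11: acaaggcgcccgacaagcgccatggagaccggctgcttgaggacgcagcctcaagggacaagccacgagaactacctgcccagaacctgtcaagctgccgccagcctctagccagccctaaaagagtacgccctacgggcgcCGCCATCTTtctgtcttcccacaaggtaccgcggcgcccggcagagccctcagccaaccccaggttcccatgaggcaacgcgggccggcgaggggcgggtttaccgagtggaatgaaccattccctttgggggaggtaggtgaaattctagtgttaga
In Mrpl33 and Mrps18a the ETS letters lie within the last part of the window close to the start, and in Mrpl52 they are read on the minus strand.

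In ProNeut against PreNeut cells, most mitochondrial ribosomal protein genes had slightly lower levels, and limma over 15 libraries called none. Summed over the 78 genes, they took 0.135% to 0.147% of the reads in the ProNeut libraries and 0.160% to 0.173% in the PreNeut libraries. These shares of plain library totals did not overlap between the groups. On the deposited CPM scale the sums did overlap, at 677 to 748 CPM in ProNeut and 714 to 831 CPM in PreNeut. With all 15 libraries in 1 fit, limma called 0 of the 78 genes higher and 0 lower, where it called 1.84% of all 14161 genes tested higher and 0.417% lower; at an unadjusted p under 0.05 by limma there were 0 higher (7.95% of all genes) and 2 lower (3.64% of all genes). The log2 difference was below 0 for 60 of the 78 genes (76.9%), against 44.6% of all genes tested, with a median of -0.19 against 0.07 for all genes. The 3 ProNeut libraries lay above all 3 PreNeut libraries for 3 members (3.85%, against 17.8% of all genes) and below them for 19 (24.4%, against 18.2%).

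The 15-library fit takes the spread of a gene from all groups, and the shallow libraries widen it: the median SD of a member was 0.177 in ProNeut, 0.222 in PreNeut, 0.545 in Neutrophil, 0.648 in CD115plusGMP and 0.532 in CMP (log2 CPM, n = 3 each). With only the 6 ProNeut and PreNeut libraries in the limma fit, 1 member was called lower (2.74% of all genes) and 0 higher (3.64% of all genes), and 5 members were lower and 1 higher at an adjusted p under 0.05 whatever the size, against 11.1% and 10.8% of all genes. The 5 were Mrpl18, Mrpl49, Mrps7, Mrps28 and Mrps23, and the 1 was Mrpl33; Mrpl18, Mrpl49 and Mrps23 are named here because of these values. Of the 6, Mrpl18 and Mrpl33 kept an adjusted p under 0.05 when any 1 of the 6 libraries was left out. The count of lower members went down to 1 without PreNeut replicate 1 or ProNeut replicate 1, was 2 without PreNeut replicate 3 and was 10 without PreNeut replicate 2.

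**Figure D1:**
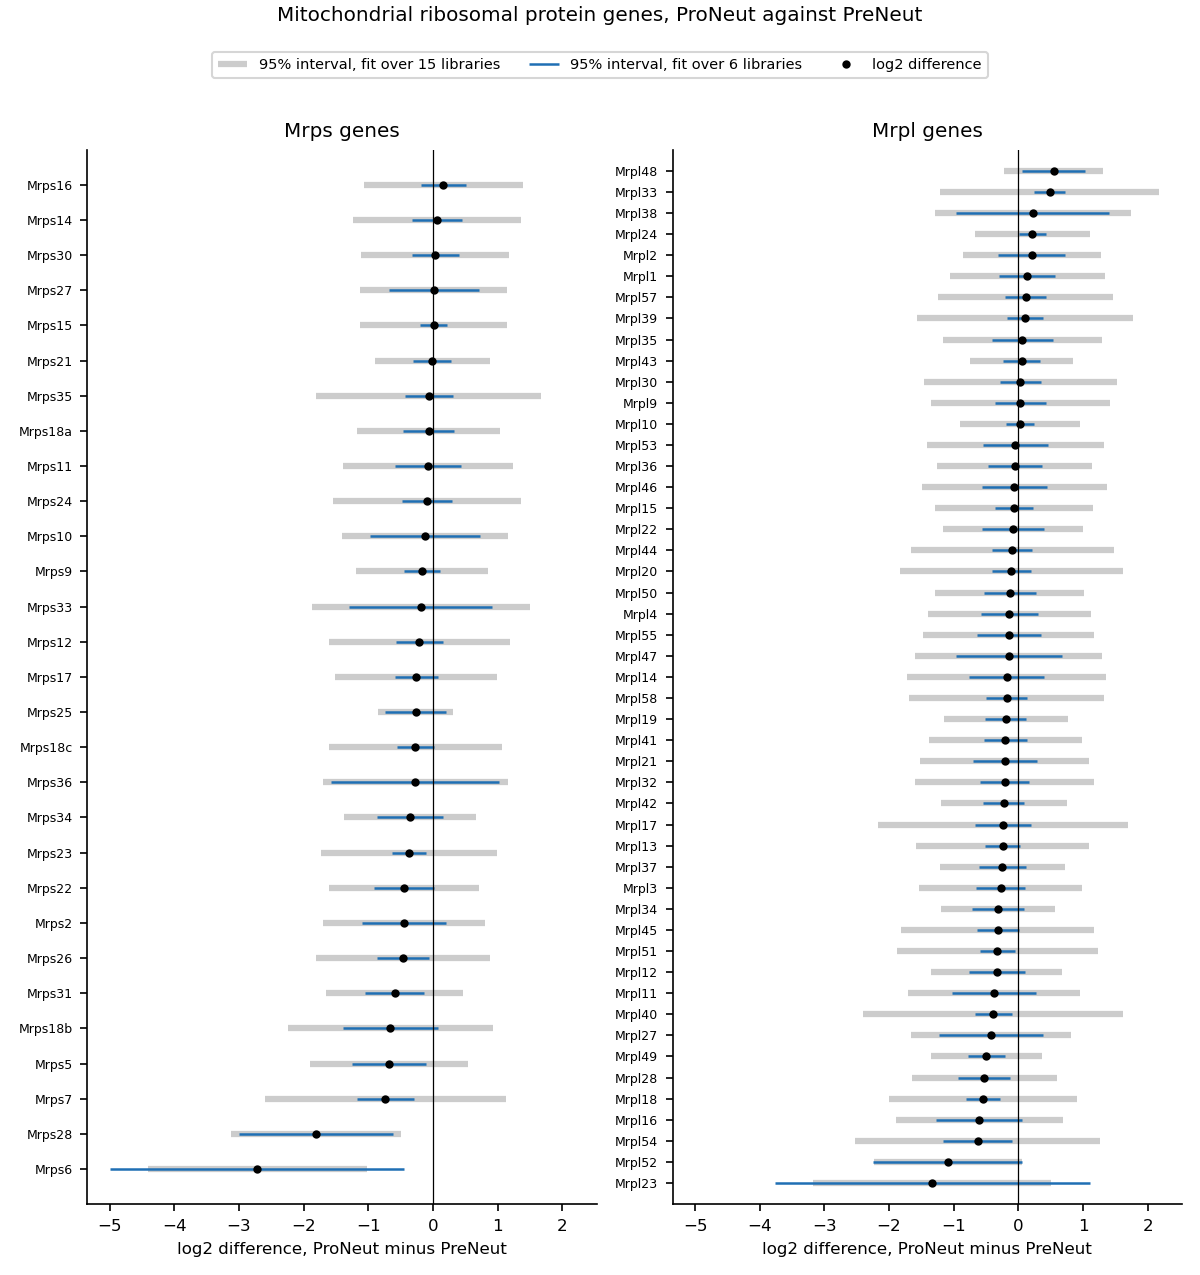
Log2 difference, ProNeut minus PreNeut, of each of the 78 genes (points), with 95% intervals from the limma fit over 15 libraries (grey) and over the 6 libraries of the 2 groups (blue); Mrps genes are on the left and Mrpl genes on the right, in order of the difference. Most points lie between -0.5 and 0.5 and left of 0, and Mrps6, Mrps28, Mrpl23 and Mrpl52 lie farthest to the left.

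Among small-subunit proteins with a bacterial counterpart, 13 of 16 had a difference below 0, with a median of -0.19. Mrps7, a protein of the head of the small subunit, measured 2.34, 2.63 and 2.84 log2 CPM in ProNeut and 3.57, 2.95 and 3.48 in PreNeut. Every ProNeut library was lower, with a log2 difference of -0.73 ± 0.21 (SE) and an adjusted p of 0.0168 in the 6-library limma fit, against an adjusted p of 0.988 in the 15-library fit. Mrps5, which lines the mRNA entry in bacteria, measured 1.57, 2.25 and 1.47 in ProNeut and 2.34, 2.35 and 2.62 log2 CPM in PreNeut. The groups did not overlap, but the difference of -0.68 did not pass in either limma fit (adjusted p 0.0877 in the 6-library fit). Mrps16 and Mrps14, further proteins of this kind, lay close to 0 with log2 differences of 0.16 and 0.07.

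Mrps28, a small-subunit protein, had the largest difference backed by more than a handful of reads. It measured -1.20, 0.39 and -0.94 log2 CPM in ProNeut, from 6, 27 and 13 reads, and 1.21, 0.64 and 1.83 in PreNeut, from 62, 39 and 501 reads. ProNeut replicate 2 lay just under the lowest PreNeut library and the other ProNeut libraries far under it. The log2 difference was -1.81, with an adjusted p of 0.187 in the 15-library limma fit, 0.0297 in the 6-library limma fit and 0.109 in that 6-library fit without PreNeut replicate 3.

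Mrps6, whose bacterial counterpart pairs with protein S18 in the platform of the small subunit, had the largest fitted difference and almost no reads. It had 2, 2 and 0 reads in ProNeut and 14, 5 and 133 in PreNeut, which gave -2.58, -3.07 and -5.69 log2 CPM in ProNeut and -0.90, -2.21 and -0.08 in PreNeut. No ProNeut library reached the lowest PreNeut library. The fitted log2 difference of -2.72 ± 0.80 (SE), adjusted p 0.106 by limma, rests on the 0.5 reads added to the library at 0, and was -1.76 without ProNeut replicate 3.

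Among small-subunit proteins found only in mitochondria, 9 of 10 had a difference below 0, with a median of -0.36. Mrps31 measured 2.26, 2.40 and 2.04 log2 CPM in ProNeut and 2.87, 2.56 and 3.04 in PreNeut. Mrps23 measured 3.92, 4.12 and 4.05 in ProNeut and 4.46, 4.21 and 4.53 in PreNeut. Both were lower in all 3 ProNeut libraries, by log2 differences of -0.59 and -0.37. In the 6-library limma fit the adjusted p of Mrps23 was 0.0417, and it was 0.0587 or more when any library but PreNeut replicate 2 was left out.

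The 3 members with the S18 name share descent from 1 bacterial protein and sit at different places in mammalian ribosomes. Mrps18c, which takes the bacterial position, measured 3.75, 3.72 and 3.83 log2 CPM in ProNeut and 3.94, 3.88 and 4.30 in PreNeut. Mrps18b measured 0.77, 0.91 and 0.75 in ProNeut and 1.50, 1.45 and 1.46 in PreNeut. Mrps18a measured 2.75, 2.79 and 2.99 in ProNeut and 3.02, 2.68 and 3.02 in PreNeut. The groups were apart for Mrps18b and Mrps18c and overlapped for Mrps18a, and no member of the family passed in either limma fit; the log2 differences were -0.27 for Mrps18c, -0.66 for Mrps18b and -0.06 for Mrps18a. Of the 50-base stretches of Mrps18b, 60.9% also occur in the exons of another gene, chiefly Gm16279 on the opposite strand.

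Among large-subunit proteins with a bacterial counterpart, 20 of 28 had a difference below 0, with a median of -0.19. Mrpl18, which binds the central protuberance of the large subunit, measured 4.59, 4.87 and 4.93 log2 CPM in ProNeut and 5.39, 5.08 and 5.57 in PreNeut. The difference of -0.55 ± 0.13 (SE) had an adjusted p of 0.00487 in the 6-library limma fit, with all ProNeut libraries lower. Mrpl18 overlaps 141 exon bases of Tcp1 on the opposite strand, which measured 5.90 to 6.11 log2 CPM in ProNeut and 6.36 to 6.55 in PreNeut. The part of that overlap in the value of Mrpl18 was not tested.

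Mrpl33, a small protein of the large subunit near the tRNA exit site in bacteria, went the other way. It measured 4.78, 4.72 and 5.05 log2 CPM in ProNeut and 4.36, 4.32 and 4.42 in PreNeut, with every ProNeut library above every PreNeut library. Its log2 difference of 0.48 ± 0.11 (SE) had an adjusted p of 0.00478 in the 6-library limma fit and stayed between 0.39 and 0.55 when any 1 library was left out. The gene Gm43809 on the same strand shares 30.3% of the 50-base stretches of Mrpl33, so reads of the 2 could be exchanged by counting.

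Mrpl23, a protein at the exit of the nascent chain, had 1, 3 and 0 reads in ProNeut and 11, 2 and 17 in PreNeut. The groups overlapped, and the fitted log2 difference of -1.33 became -0.42 without ProNeut replicate 3. The copy Mrpl23-ps1 is the main other gene behind the 51.7% of its 50-base stretches that are not its own alone, so this value is uncertain. Mrpl16, a protein near the peptidyl transferase centre, measured 0.98, 1.38 and 1.71 log2 CPM in ProNeut and 2.31, 1.75 and 1.82 in PreNeut, and its difference of -0.60 did not pass (limma, adjusted p 0.198 in the 6-library fit). Mrpl24, Mrpl2, Mrpl1, Mrpl38, Mrpl57 and Mrpl39 were the other members with the largest differences above 0, of 0.11 to 0.22, and none passed in either limma fit. The direction of Mrpl2, Mrpl1, Mrpl57 and Mrpl38 turned when 1 library was left out.

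The stalk, which recruits translation factors to the large subunit, is built from Mrpl10 and Mrpl12, with Mrpl11 at its base. Mrpl10 measured 4.54, 4.54 and 4.61 log2 CPM in ProNeut and 4.51, 4.50 and 4.62 in PreNeut. Mrpl12 measured 2.46, 2.45 and 2.63 in ProNeut and 3.13, 2.61 and 2.80 in PreNeut. Mrpl11 measured 1.12, 1.75 and 1.32 in ProNeut and 1.88, 1.80 and 1.63 in PreNeut. All 3 overlapped between the groups; the log2 differences were 0.02 for Mrpl10, with a sign that turns under plain library totals, -0.33 for Mrpl12 and -0.37 for Mrpl11.

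Among large-subunit proteins found only in mitochondria, 17 of 23 had a difference below 0, with a median of -0.15. Mrpl52 measured -0.38, -0.53 and 0.09 log2 CPM in ProNeut and 0.35, 0.36 and 1.74 in PreNeut. Its difference of -1.09 did not pass (limma, adjusted p 0.466) and was -0.63 without PreNeut replicate 3. Mrpl54 measured 2.32, 2.09 and 2.11 in ProNeut and 2.87, 2.26 and 3.29 in PreNeut, with overlapping groups and a difference of -0.63 that was -0.39 without PreNeut replicate 3. Mrpl49 measured 3.35, 3.54 and 3.64 in ProNeut and 4.14, 3.97 and 3.91 in PreNeut. All ProNeut libraries were lower for Mrpl49, and the difference of -0.49 ± 0.14 (SE) had an adjusted p of 0.0155 in the 6-library limma fit. Mrpl48 measured 2.79, 2.63 and 2.44 in ProNeut and 2.37, 1.87 and 1.98 in PreNeut. Mrpl48 was higher in all 3 ProNeut libraries, by 0.55, and did not pass (limma, adjusted p 0.109 in the 6-library fit).

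**Figure D2:**
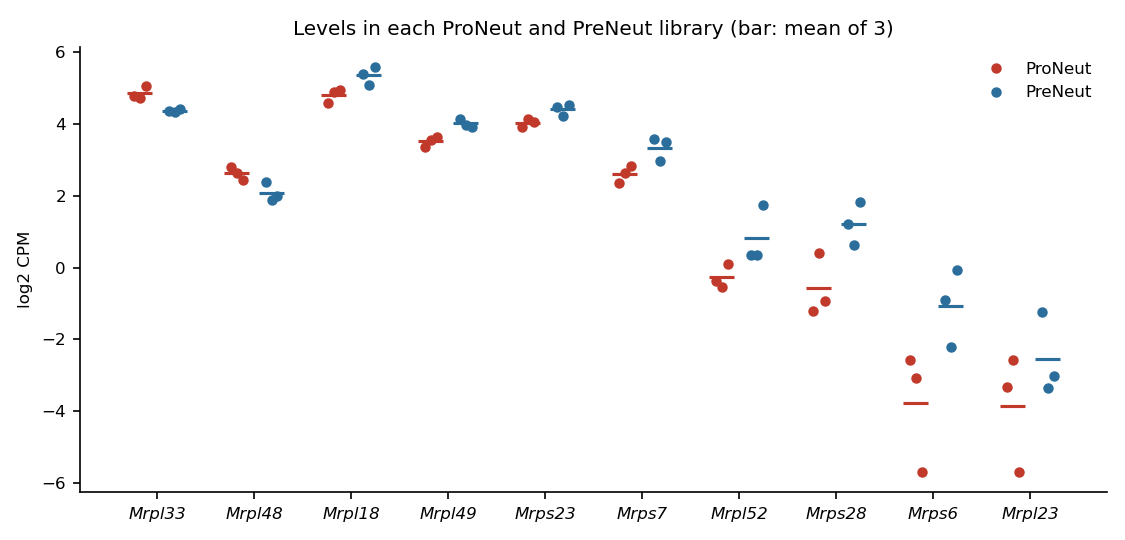
Log2 CPM of 10 members in each ProNeut library (red) and each PreNeut library (blue), with a bar at the mean of 3. ProNeut points lie above PreNeut points for Mrpl33 and Mrpl48 and below them for Mrpl18, Mrpl49, Mrps23, Mrps7, Mrpl52, Mrps28 and Mrps6, and the points of Mrpl23 overlap.

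Among the 42 members that share under 5% of their 50-base stretches with another gene, 32 had a limma difference below 0 and the median was -0.18.

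Mrpl33 and Mrps15 had the highest levels per length in both groups, while other members changed place. Mrps28 ranked 73 of 78 in ProNeut and 52 in PreNeut, and Mrpl52 ranked 61 in ProNeut and 47 in PreNeut. On the scale of log2 CPM per kilobase of exon, Mrpl33 was highest, at 5.91 ± 0.17 in ProNeut and 5.43 ± 0.05 in PreNeut (SD, n = 3 each). Mrps15 followed at 5.08 ± 0.05 in ProNeut and 5.07 ± 0.14 in PreNeut, and Mrps21 measured 4.90 ± 0.10 in ProNeut and 4.91 ± 0.22 in PreNeut. Mrpl18 measured 4.51 ± 0.18 in ProNeut and 5.06 ± 0.25 in PreNeut, where it lay within the spread of Mrps15 and Mrps21. The lowest were Mrps33 at -0.53 ± 0.55 in ProNeut and -0.34 ± 0.16 in PreNeut, Mrps6 at -3.54 ± 1.67 in ProNeut and -0.82 ± 1.07 in PreNeut, and Mrpl23 at -3.81 ± 1.63 in ProNeut and -2.48 ± 1.13 in PreNeut. Mrps6 and Mrpl23 do not differ beyond their spread in ProNeut.

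Other genes of mitochondrial translation were listed by role, and in the 15-library limma fit 0 of them were called in ProNeut against PreNeut. Of 16 translation factors, 14 had a difference below 0, with a median of -0.26. Mtrf1l, a release factor, measured 2.24, 2.50 and 2.52 log2 CPM in ProNeut and 3.18, 3.36 and 3.42 in PreNeut, a difference of -0.90 with an adjusted p of 0.00178 in the 6-library limma fit. Gfm1, an elongation factor, and Guf1, a factor that acts on stalled ribosomes, were the other factors under 0.05 in that fit, at -0.64 and -0.82. Of 20 mitochondrial aminoacyl-tRNA synthetases, which charge the tRNAs, 18 were below 0, with a median of -0.29, and 0 had an adjusted p under 0.05 in the 6-library limma fit. Of 26 assembly factors in the table, 13 were below and 13 above 0, with a median of -0.03; Rbfa, which helps mature the small-subunit RNA, was higher in that fit (0.33, adjusted p 0.00844) and Fastkd2, a factor for the large-subunit RNA, lower (-1.29, adjusted p 0.0405).

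Ptcd3, a small-subunit protein without an Mrps symbol, measured 3.43, 3.36 and 3.57 log2 CPM in ProNeut and 4.11, 4.02 and 4.44 in PreNeut. Its difference of -0.74 had an adjusted p of 0.00123 in the 6-library limma fit, and all ProNeut libraries were lower; of the 5 subunit genes with other symbols, 3 were below 0. Tfam, which packages mitochondrial DNA and starts its transcription, measured 2.85, 2.88 and 2.58 in ProNeut and 3.50, 3.39 and 3.66 in PreNeut. Tfam was lower in all ProNeut libraries, by -0.75 with an adjusted p of 0.00385 in the 6-library limma fit, while 2 of the 6 genes of mitochondrial transcription were below 0.

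The mRNAs that the mitochondrial ribosome translates were lower too, and by more. All 13 mitochondrial protein genes had a difference below 0 in ProNeut against PreNeut, with a median of -1.03, and none was called in the 15-library limma fit. CYTB, the cytochrome b of complex III, measured 9.89, 9.998 and 10.19 log2 CPM in ProNeut and 10.95, 10.80 and 10.99 in PreNeut, a difference of -0.89 with an adjusted p of 0.0102 by limma that falls short of the size asked for. COX1, the catalytic subunit of complex IV, had a difference of -0.75 with an adjusted p of 0.0353 by limma. In the 6-library limma fit 11 of the 13 had an adjusted p under 0.05, all lower, and 6 were called. The RNAs of the mitochondrial ribosome itself, mt-Rnr1 of the small and mt-Rnr2 of the large subunit, were looked up after the values of the other genes had been seen and had differences of 0.20 and 0.08, and neither passed in the limma fit.

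**Figure D3:**
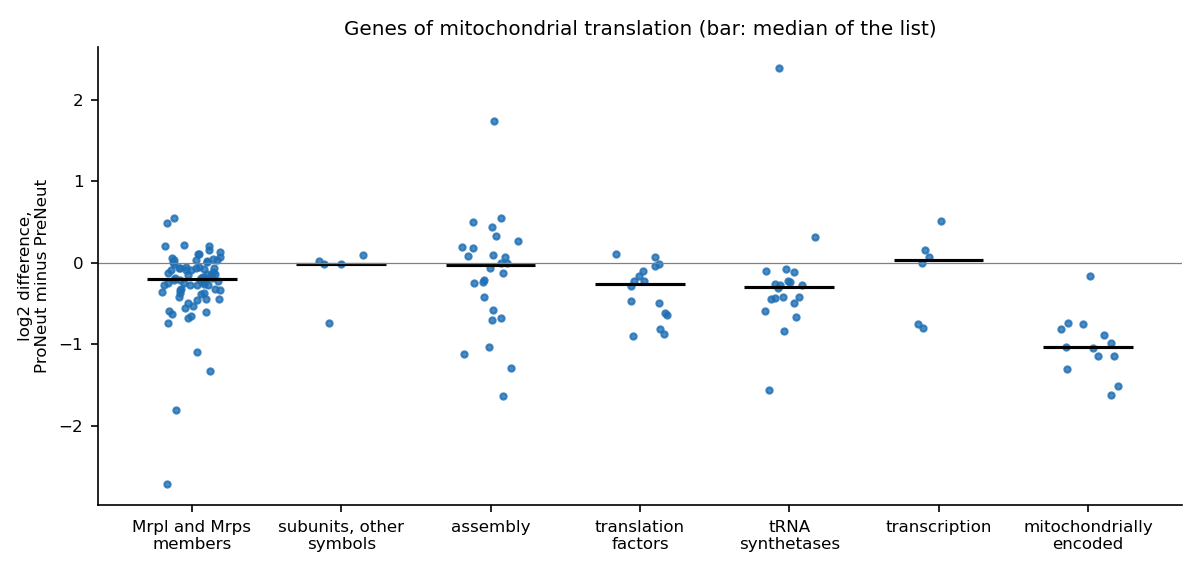
Log2 difference, ProNeut minus PreNeut, of the 78 members and of the other lists of mitochondrial translation genes (1 point per gene, bar at the median of a list). The medians are -0.19 for the members, -0.03 for assembly factors, -0.26 for translation factors, -0.29 for tRNA synthetases and -1.03 for mitochondrially encoded genes.

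Markers of cell state moved with these differences. The summed level of 9 replication genes was 356 to 406 CPM in ProNeut and 1077 to 1148 CPM in PreNeut, with all 9 lower. Early granule genes, 4 of 4 lower, summed to 21.0 to 105 CPM in ProNeut and 915 to 1101 CPM in PreNeut, and 7 late granule genes summed to 59829 to 68967 CPM in ProNeut and 49562 to 57666 CPM in PreNeut. Markers of other cells differed as well: 9 erythroid genes summed to 48.4 to 53.9 CPM in ProNeut and 2.48 to 6.63 CPM in PreNeut, 5 basophil and mast cell genes to 2.28 to 2.51 CPM in ProNeut and 27.3 to 31.4 CPM in PreNeut, and 3 T and NK cell genes to 3.21 to 5.24 CPM in ProNeut and 21.6 to 29.3 CPM in PreNeut. The genes of the T and NK list went opposite ways: Nkg7 was called lower in ProNeut (-3.34, adjusted p 0.0185 by limma) and Cd3d higher (3.48, adjusted p 0.0282 by limma). No gene of these lists was at 0 over a group. Their part in the differences of the members was not tested, and less RNA of a gene per cell and fewer cells with it cannot be told apart in such bulk samples.

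In the 9 shallow libraries the members were thinly covered, and most of all in Neutrophil. Of the 78 members, 58, 58 and 45 had 0 reads in the Neutrophil libraries, 9, 18 and 19 in the CD115plusGMP libraries and 4, 2 and 3 in the CMP libraries, against 0, 0 and 2 in ProNeut and 0 in each PreNeut library. The summed share of reads was 0.0991% to 0.115% in Neutrophil, 0.160% to 0.166% in CD115plusGMP and 0.169% to 0.194% in CMP. On the deposited CPM scale the sums were 2224 to 4522 CPM in Neutrophil, 2470 to 2901 in CD115plusGMP and 1882 to 2258 in CMP. Neutrophil was thus lowest by share of plain totals but not on the CPM scale. The rank of the median member among all genes of its library was at percentile 24.4 to 27.9 in Neutrophil, 46.3 to 58.1 in CD115plusGMP, 63.4 to 67.3 in CMP, 55.3 to 56.9 in ProNeut and 56.4 to 58.3 in PreNeut. A gene with 0 reads is written as -0.32 to 0.63 log2 CPM in Neutrophil, -0.62 to -0.07 in CD115plusGMP and -1.31 to -0.79 in CMP. Values near these mark the limit of detection. With 0 reads in both groups compared, a gene is thus fitted as higher in Neutrophil than in CD115plusGMP or CMP. It is likewise fitted as higher in CD115plusGMP than in CMP. The shares and medians over all genes in these comparisons hold such genes, and their part was not tested.

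A set of 3 loci, chosen after the values were seen, held most of the member reads in these libraries. Mrps25, Mrpl48 and Mrpl19 together took 79.0% to 90.9% of member reads in Neutrophil, 77.4% to 83.2% in CD115plusGMP and 63.8% to 71.2% in CMP, but 2.89% to 3.66% in ProNeut and 2.46% to 3.68% in PreNeut. Mrps25, a small-subunit protein, had 475, 902 and 787 reads in Neutrophil, 1385, 1071 and 946 in CD115plusGMP and 957, 919 and 1515 in CMP. In GENCODE M21, Mrps25 (chr6:92169525-92184033, minus strand) overlaps 4590 exon bases of Nr2c2 on the opposite strand, Mrpl48 (chr7:100545751-100608301, minus strand) 708 of Rab6a, and Mrpl19 (chr6:81957851-81965958, minus strand) 1962 of Gcfc2. Nr2c2, a nuclear receptor, measured 5.84 to 5.92 log2 CPM in ProNeut and 6.03 to 6.22 in PreNeut, where Mrps25 measured 2.50 to 2.95 in ProNeut and 2.53 to 3.26 in PreNeut.

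Members with such neighbours were also summed as a class. In all, 23 of the 78 members overlap at least 50 exon bases of a gene on the opposite strand. They held 88.8% to 97.6% of member reads in Neutrophil, 88.9% to 92.6% in CD115plusGMP and 77.7% to 82.9% in CMP, against 32.5% to 33.5% in ProNeut and 32.1% to 33.7% in PreNeut. The part of reads from the opposite gene in these locus values was not tested.

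**Figure D4:**
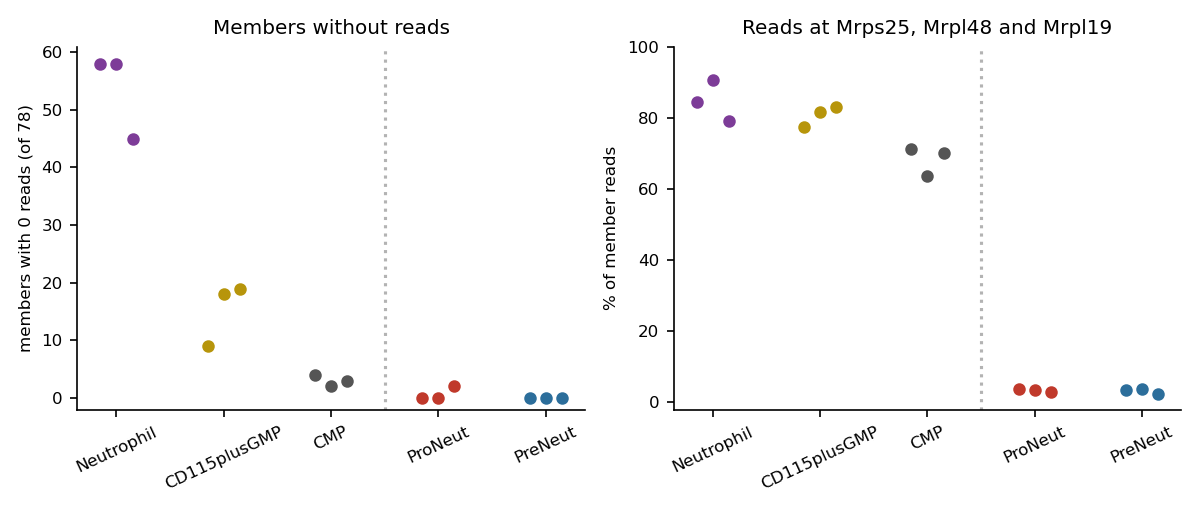
Number of the 78 members with 0 reads (left) and percent of member reads at Mrps25, Mrpl48 and Mrpl19 (right), 1 point per library, with a dotted line between the shallow and the deep set. Neutrophil has 45 to 58 members without reads, and the 3 loci take 63.8% to 90.9% of member reads in the shallow set and under 4% in the deep set.

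**Figure D5:**
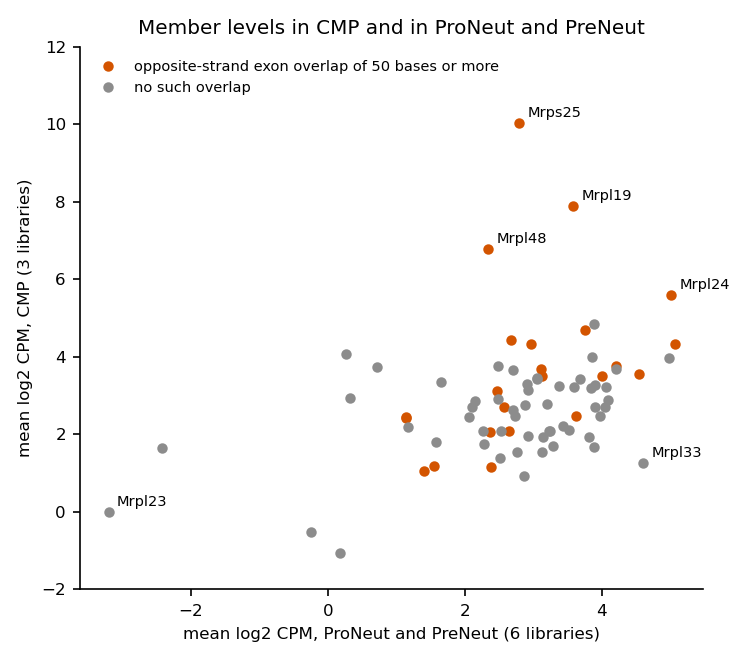
Mean log2 CPM of each member in the 3 CMP libraries against its mean in the 6 ProNeut and PreNeut libraries, with the 23 members that overlap a gene on the opposite strand in orange. Mrps25, Mrpl19 and Mrpl48 lie highest in CMP.

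In CD115plusGMP against CMP, 3 member loci were called higher by limma (background 8.08% of all genes) and 6 lower (background 4.56%). The log2 difference was below 0 for 58 of 78 members, against 42.1% of all genes, with a median of -0.69 against 0.26 for all genes. All genes here include those at 0 reads in both groups, which are fitted as higher in CD115plusGMP. Among genes above 1 log2 CPM in at least 3 libraries of the 2 groups, the medians were -0.69 for 72 members and -0.0085 for all genes. Mrpl10, of the stalk, measured 5.98, 6.14 and 5.60 log2 CPM in CD115plusGMP and 4.49, 2.62 and 3.54 in CMP, from 48, 37 and 25 reads in CD115plusGMP and 19, 6 and 14 in CMP. Its log2 difference was 2.35 ± 0.44 (SE) with an adjusted p of 0.00163 by limma, and every CD115plusGMP library was higher. Mrpl43, a large-subunit protein, was higher by 2.09 (adjusted p 0.00121 by limma), from 54, 26 and 29 reads in CD115plusGMP and 13, 20 and 10 in CMP. Both overlap a gene on the opposite strand, Gm11574 at Mrpl10 and Twnk at Mrpl43. Mrpl4, the third locus, rested on 3, 4 and 4 reads in CD115plusGMP and 1, 1 and 3 in CMP, and lost its call when any library but CD115plusGMP replicate 1 was left out.

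The 6 lower loci were Mrps9, Mrpl30, Mrpl52, Mrpl53, Mrps16 and Mrpl22. Mrps9, a head protein of the small subunit, had 1, 0 and 0 reads in CD115plusGMP and 10, 6 and 12 in CMP. Scaled to library size this is a 16.2-fold lower value, with a 95% counting interval of 2.67-fold to 660-fold, and limma gave -2.92 with an adjusted p of 0.000578. Mrpl52 had 3, 1 and 1 reads in CD115plusGMP and 10, 26 and 19 in CMP, with a limma difference of -2.34 and an adjusted p of 0.00777. Mrps9 and Mrpl52 kept their calls when any 1 library was left out; Mrpl30, Mrpl53, Mrps16 and Mrpl22 did not. With median centring the calls of Mrpl52 (-1.99, adjusted p 0.0797 by limma), Mrpl53, Mrps16 and Mrpl22 were lost. All 50-base stretches of Mrpl53 (100%) also occur in Gm42688 on the same strand, so its value is uncertain. The number of lower calls was 3 without CMP replicate 2, CMP replicate 3 or CD115plusGMP replicate 3, and 10 without CD115plusGMP replicate 1. Over all genes these fits called 414, 418, 516 and 774 lower, in the same order. Without reads added, over the 75 members with a ratio or a bound, the median log2 ratio was -0.79. The summed level of 9 erythroid markers was 3.81 to 5.64 CPM in CD115plusGMP, where 6 of the 9 were at 0 reads, and 411 to 537 CPM in CMP, and that of 5 monocyte markers was 248 to 447 CPM in CD115plusGMP and 17.04 to 20.8 CPM in CMP; their part was not tested.

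In Neutrophil against CMP, 35 member loci were called lower by limma (background 17.1% of all genes) and 7 higher (background 26.8%). The log2 difference was below 0 for 66 of 78 members, against 40% of all genes. Its median was -1.47 against 0.60 for all genes, and 35 members had 0 reads in all 3 Neutrophil libraries. All genes here include those at 0 reads in both groups, which are fitted as higher in Neutrophil. Of 5 basophil and mast cell genes, all at 0 reads in Neutrophil, 4 had a difference above 0 and 1 was called higher. Among genes above 1 log2 CPM in at least 3 libraries of the 2 groups, the medians were -1.62 for 68 members and 0.19 for all genes. Over the 75 members with a read ratio or a bound, with those at 0 at their bound of 3 reads over the group, the median log2 ratio was -0.94. Another scaling moves the median of all genes in this comparison, by -1.36 with plain library totals and by 1.002 with median centring, 2 settings that shift all genes of a library alike. The members' median minus that of all genes was -2.07 as deposited, -2.38 with quantile normalization and -1.37 with a pseudocount of 1 CPM. The share of called genes that were higher was 61.0% as deposited, 29.2% with plain totals and 83.2% with median centring.

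Mrpl12, the stalk protein, had 0 reads in the Neutrophil libraries and 11, 38 and 26 in the CMP libraries, which is at least 10.1-fold lower. Gm16755, on the opposite strand of Mrpl12 with 200 shared exon bases, measured 5.90 to 7.14 log2 CPM in Neutrophil and 11.78 to 11.93 in CMP. In the deep libraries Gm16755 measured only -4.90 to -2.88 in ProNeut and -5.76 to -2.26 in PreNeut. Its values in the shallow libraries may hold reads from the strand of Mrpl12, which was not tested. Mrpl52 had 0 reads in Neutrophil and 10, 26 and 19 in CMP, at least 7.38-fold lower. Mrps30, a large-subunit protein in spite of its symbol, had 0 in Neutrophil and 10, 14 and 15 in CMP, at least 5.23-fold lower, and Mrps22, found only in mitochondrial ribosomes, 0 in Neutrophil and 12, 15 and 11 in CMP, at least 5.10-fold lower. These bounds compare with adjusted limma p-values of 2.81e-06 for Mrpl12, 2.65e-05 for Mrpl52, 8.55e-05 for Mrps30 and 0.000107 for Mrps22. The locus of Mrpl19 had 8, 2 and 23 reads in Neutrophil and 214, 238 and 300 in CMP, and Gcfc2 on its opposite strand measured 0.63 to 3.38 log2 CPM in Neutrophil and 5.07 to 5.43 in CMP. Mrps7 had 2, 0 and 0 reads in Neutrophil and 20, 24 and 18 in CMP, a ratio 12.5-fold lower with a 95% counting interval of 3.31-fold to 105-fold; its limma call was lost with median centring (-2.25, adjusted p 0.0563). Gga3 on its opposite strand measured 2.94 to 4.54 log2 CPM in Neutrophil and 1.24 to 2.77 in CMP. Mrps30 overlaps 623 exon bases of B430218F22Rik on the opposite strand, which is not analysed here.

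The 7 higher loci were Mrpl48, Mrpl10, Mrpl33, Mrps33, Mrpl49, Mrpl43 and Mrps21. The locus of Mrpl48 measured 10.04, 10.39 and 8.85 log2 CPM in Neutrophil and 6.63, 6.73 and 6.97 in CMP, with a difference of 2.98 ± 0.36 (SE) and an adjusted p of 4.84e-06 by limma. Rab6a on its opposite strand, a gene of Golgi traffic, measured 7.08 to 7.96 log2 CPM in Neutrophil and 3.08 to 3.46 in CMP. Mrpl10 was higher in every Neutrophil library, by 2.77 (adjusted p 7.58e-05 by limma). Mrpl33 had 2, 3 and 24 reads in Neutrophil and 5, 0 and 5 in CMP, and Mrps33 had 0, 0 and 6 in Neutrophil and 0 in CMP. Both lost their calls without Neutrophil replicate 3, where 4 higher calls were left, and Mrpl33 also without CMP replicate 2. Mrpl43 and Mrpl49 were higher by 1.27 and 1.42. Both calls were lost with plain totals, where Mrpl43 was at -0.097 and Mrpl49 at 0.054, and with quantile normalization, where Mrpl43 was at 0.18 and Mrpl49 at 0.15. The call of Mrpl43 was also lost without CMP replicate 3 (0.92, adjusted p 0.0668 by limma) and with only the 2 groups in the limma fit. The calls of Mrpl33 and Mrps33 were lost with plain totals as well.

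In Neutrophil against CD115plusGMP, which shares its libraries with the comparisons before it, 18 member loci were called lower by limma (background 13.2% of all genes) and 1 higher (background 20.2%). The median log2 difference was -0.73 against 0.32 for all genes, with 52 of 78 members below 0, against 40.1% of all genes. All genes here include those at 0 reads in both groups, which are fitted as higher in Neutrophil. Among genes above 1 log2 CPM in at least 3 libraries of the 2 groups, the medians were -0.91 for 56 members and 0.32 for all genes. With the 6 libraries of these groups alone in the limma fit, 3 of the 78 members were called lower, against 1100 of all 14161 genes. In that fit 1 member was called higher, against 2347 of all genes. The 1 higher locus was Mrpl48, at 10.04, 10.39 and 8.85 log2 CPM in Neutrophil and 6.67, 6.65 and 6.44 in CD115plusGMP, a difference of 3.17 ± 0.36 (SE) with an adjusted p of 4.41e-06 by limma. Mrpl19 had 8, 2 and 23 reads in Neutrophil and 146, 134 and 88 in CD115plusGMP, a difference of -3.36 with an adjusted p of 2.33e-05 by limma. Mrpl27, a protein at the peptidyl transferase centre in bacteria, had 0 reads in Neutrophil and 8, 4 and 6 in CD115plusGMP, at least 4.19-fold lower. Eme1 on its opposite strand measured 7.36 to 8.21 log2 CPM in Neutrophil and 10.38 to 10.57 in CD115plusGMP. In the deep libraries Eme1 measured 3.93 to 4.04 in ProNeut and 4.09 to 4.53 in PreNeut. Mrpl12 had 0 in Neutrophil and 6, 3 and 4 in CD115plusGMP, at least 3.02-fold lower, and Mrps2, a small-subunit protein with a bacterial counterpart, 0 in Neutrophil and 5, 6 and 2 in CD115plusGMP, also at least 3.02-fold lower. Gm16755, opposite Mrpl12, measured 11.34 to 11.75 log2 CPM in CD115plusGMP. With median centring the call of Mrps2 was lost (adjusted p 0.0520 by limma).

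Cell markers moved with the Neutrophil differences too. The 7 late granule genes summed to 4298 to 10832 CPM in Neutrophil, 11.4 to 26.0 CPM in CD115plusGMP and 6.63 to 12.1 CPM in CMP, and 9 replication genes to 107 to 371 CPM in Neutrophil, with 5 of the 9 at 0 reads, 379 to 463 CPM in CD115plusGMP and 699 to 726 CPM in CMP. The 9 erythroid genes summed to 0 to 9.61 CPM in Neutrophil, with 8 of the 9 at 0 reads, 3.81 to 5.64 CPM in CD115plusGMP and 411 to 537 CPM in CMP, and 7 of the 9 were called lower by limma in Neutrophil against CMP. The 5 monocyte genes summed to 12.3 to 128 CPM in Neutrophil, with Irf8 at 0 reads, 248 to 447 CPM in CD115plusGMP and 17.04 to 20.8 CPM in CMP. Their part in the locus values was not tested.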

How the data were processed

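RNA-seq libraries of 5 sorted mouse bone marrow populations, 3 each, were made with the Universal Plus mRNA-Seq kit, per the labels' protocols. The authors deposited 1 table of log2 CPM for 14801 genes; its genome build was GRCm38 and its tools were featureCounts 1.22.2, edgeR 1.30.5 and FastQC 0.11.7, per the submitters' processing notes. The sources used here do not give the aligner, the annotation or the strand setting. A deposited log2 value is the log2 of a whole number of reads plus 0.5 times a step constant within a library; this held for 100% of values (tolerance 0.001 reads), so reads were recovered. Recovered totals cover genes of the table only, and counting intervals (95%) and floors (3 reads) cover counting error only.

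The members and the gene lists were chosen with earlier results of these data known. Genes that exceeded 0 log2 CPM in 3 or more of 15 libraries (14161 genes, all 78 members among them) were fitted with limma 3.58.1 in R 4.3.3 (group means, contrasts, eBayes with trend, all 15 libraries), after a check on simulated data; p-values were 2-sided, adjusted by Benjamini-Hochberg over all genes tested. Comparisons were kept within the deep set (ProNeut, PreNeut) and within the shallow set (Neutrophil, CD115plusGMP, CMP). Statistics are named for the 10 largest increases and decreases in ProNeut against PreNeut, up to 6 called members per direction in the other comparisons (Mrps21 is named beyond these 6), the stalk and S18 genes, and up to 4 genes per other list. Alternatives were other filters, scalings and a pseudocount of 1 CPM, fits with the 2 groups only, a replicate block and each library left out. Leaving out libraries in the 6-library fit was added after seeing the data. Positions and overlaps come from GENCODE M21, with all 78 members matched, and promoters from RefSeq. The sums of 1 further list of cell markers are not reported here.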

Additional observations from a re-analysis of the deposited data

How the results depend on the processing

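In ProNeut against PreNeut, the count of members called higher was 0 under every alternative given here, where 76 to 621 of all genes were. The count of members called lower was 0 except for 1 with only the 2 groups compared (388 of all genes). When 1 of the 6 libraries was also left out of the 2-group fit, it was 0 to 1 (329 to 397 of all genes). The median of the members stayed below 0 in every comparison under every alternative given here. Single members near 0 changed sign. When 1 library was left out, Mrpl38 ranged from -0.48 to 0.64 (-0.48 without PreNeut replicate 3, -0.0063 without ProNeut replicate 3), Mrpl2 from -0.062 to 0.34, Mrpl1 from -0.040 to 0.36, Mrpl57 from -0.043 to 0.20, Mrps14 from -0.092 to 0.18 (-0.077 without PreNeut replicate 2) and Mrpl10 from -0.00097 to 0.061. With plain library totals Mrps14 was -0.020 and Mrpl10 -0.064, and with quantile normalization Mrps18a was 0.0056. In Neutrophil against CMP, Mrpl43 was -0.097 with plain totals.

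In what follows, brackets hold the count over all 14161 genes tested, so a member count alone is not a result about the members. In CD115plusGMP against CMP, the members called lower numbered 16 (1302) with quantile normalization, 2 (302) with median centring and 22 (1383) with plain totals. They numbered 12 (945) with a pseudocount of 1 CPM and 3 to 10 (414 to 774) when 1 library was left out. The median was -1.25 with plain totals. In Neutrophil against CMP, the members called higher numbered 4 (3636) with quantile normalization, 2 (1923) with plain totals and 4 (4234) with the 2 groups only. They numbered 4 to 7 (3236 to 3885) when 1 library was left out. Those called lower numbered 15 (1116) with median centring, 62 (4652) with plain totals and 21 (1848) with the 2 groups only. The median was -2.20 with quantile normalization, -0.47 with median centring and -2.84 with plain totals. In Neutrophil against CD115plusGMP, the members called higher numbered 2 with the stricter filter (2784 of the genes that passed it). They numbered 5 (3758) with median centring and 1 to 3 (2527 to 3003) when 1 library was left out. Those called lower numbered 6 (1024) with median centring, 37 (3121) with plain totals and 3 (1100) with the 2 groups only. The median was -0.084 with median centring and -1.54 with plain totals. The causes were not tested. A pair of count-model tests on the recovered reads, planned as further alternatives, was run but its values are not given here, since the deposited unit is a log scale. Both called at least 1 member lower in ProNeut against PreNeut. Without the counts over all genes, which are not given, this is not a result about the members. It does mean that the count of 0 from limma over 15 libraries depends on the test as well as on the libraries fitted.

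Same-numbered libraries were compared by their deviations from their group means. These correlated at 0.054 to 0.145 between ProNeut and PreNeut and at -0.053 to 0.072 in the other comparisons. Differently numbered libraries were not compared, so these values do not settle whether replicate numbers pair libraries. With a replicate block, member calls were 0 higher and 0 lower in ProNeut against PreNeut (241 and 44 over all genes). They were 3 and 5 in CD115plusGMP against CMP (1106 and 574) and 6 and 35 in Neutrophil against CMP (3700 and 2406). In Neutrophil against CD115plusGMP they were 1 and 18 (2863 and 1849). The depth of the shallow set, with a median of 0 to 9.0 reads per member and library, limits what can be shown for single members there. So does the strand that these libraries appear to count, for members with and without an annotated gene on the opposite strand.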
